A study of Mus musculus with 6 samples.

Results

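Collagens and the proteins that process them were followed by their transcripts in whole aortic arches of mice with and without an endothelial deletion of Rbpj. The members were the listed genes whose symbol has the form of a collagen alpha chain, together with 8 enzymes or enzyme cofactors and the chaperone gene Serpinh1. This gave 45 of the 14298 genes listed, of which 36 were collagen genes. They were grouped by textbook class into 10 fibrillar collagens, 8 basement membrane collagens, 18 other collagens and 9 processing genes. A further 8 collagen genes (Col6a5, Col9a1, Col9a2, Col11a1, Col13a1, Col17a1, Col25a1 and Col26a1) were not among the listed genes and were not analysed here.

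Every animal lacked apolipoprotein E (ApoE-/-), which makes mice prone to atherosclerosis, and carried floxed Rbpj alleles (RBPJflox/flox) on the strain C57/BL6. The 3 knockout libraries came from ApoE-/-; RBPJflox/flox;Cdh5-CreERT mice, in which a tamoxifen-activated recombinase is driven by the promoter of the endothelial cadherin gene Cdh5. The 3 control libraries came from ApoE-/-;RBPJflox/flox mice, for which the labels name no recombinase. Both groups received tamoxifen over 1 week when 8 weeks old and then ate a high-fat diet for 6 weeks. Rbpj is the DNA-binding partner of the Notch receptors, so the comparison asked how transcripts of the wall stood when it was deleted in endothelial cells. PolyA RNA was sequenced, and the series' design gives 3 mice per group.

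Collagens are triple helices of 3 alpha chains. In the endoplasmic reticulum the chains are hydroxylated on prolines and lysines and are held by the chaperone HSP47 until they fold, and outside the cell the propeptides of fibrillar procollagens are cut off so that fibrils can assemble. Types I and III give the arterial wall its tensile strength, type IV forms the network of the basement membranes around smooth muscle cells and under the endothelium, and fibril-associated and short-chain collagens link or fill the space between fibrils.

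Levels are normalised read counts scaled by library size (CPM), and values per library are given in the order S595, S598 and S599 for knockout and S591, S592 and S594 for control. A log2 fold change is the knockout minus the control mean of log2(CPM + 1), a scale that makes differences of low genes look smaller, and adjusted p-values are from limma with Benjamini-Hochberg adjustment over all listed genes at a threshold of 0.05. The libraries held 6181341 to 10072495 reads (knockout) and 5904504 to 7855001 reads (control) in the listed genes. Rbpj had 169, 197 and 212 CPM in the knockout arches, against 174, 191 and 200.4 CPM in the control arches, but arch-wide totals of a gene cannot check a deletion made in one cell type. Cdh5 had 109, 111 and 198 CPM in the knockout arches, against 123, 126 and 146 CPM in the control arches. All 10 smooth muscle markers and all 12 endothelial markers examined were listed. Of 12 thymocyte and T cell markers, 11 were listed, and their summed level was 30.7, 221 and 97.9 in the knockout arches, against 44.5, 33.7 and 39.2 in the control arches, high in knockout S598 and S599. Cd28, a T cell costimulatory receptor gene, had 5.55, 9.50 and 9.67 CPM in the knockout arches, against 5.95, 3.96 and 3.28 CPM in the control arches, and Dntt, an enzyme gene of immature lymphocytes, had 1.29, 23.5 and 7.16 CPM in the knockout arches, against 1.69, 0.872 and 1.42 CPM in the control arches, with log2 fold changes of 0.77 (SE 0.27, adjusted p = 0.182) and 1.74 (SE 0.74, adjusted p = 0.248) and overlapping groups. Of 12 markers of airway, thyroid and thymus epithelium, 4 were listed, and their summed level was 83.7, 105 and 73.9 in the knockout arches, against 15.8, 14.1 and 15.0 in the control arches. It was higher in all 3 knockout libraries. Scgb1a1, which encodes a secreted protein of airway club cells, had 37.7, 25.6 and 23.8 CPM in the knockout arches, against 1.33, 2.21 and 3.65 CPM in the control arches, and Bpifa1, which encodes a secreted protein of the upper airway, had 35.4, 50.6 and 32.5 CPM in the knockout arches, against 0.622, 1.14 and 3.41 CPM in the control arches. Both passed the test, with log2 fold changes of 3.17 (SE 0.29, adjusted p = 0.0317) and 4.001 (SE 0.37, adjusted p = 0.0317), and they were 2 of the 3 genes called in the whole table. Both were also called by DESeq2, with array weights, after quantile normalisation, without TMM scaling, and without control S591 or control S594. Neither was called with a pseudocount of 0.5 or 0.1, with at least 5 CPM required in at least 3 libraries, without the intensity trend, with S595 as the single knockout library, by edgeR (adjusted p = 0.0636 for both), by limma-voom, or without control S592, knockout S595, knockout S598 or knockout S599, where the adjusted p by limma ran from 0.0826 to 0.190. The part of these tissues in the collagen values was not tested.

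In the knockout arches 8 of 10 fibrillar collagen genes had negative log2 fold changes and 6 of 8 basement membrane collagen genes positive ones, and no single member passed the test. Of the 45 members, 0 had an adjusted p under 0.05 by limma, where 0.0210% of all genes did. The edgeR quasi-likelihood test and limma-voom also called 0 members, and the smallest adjusted p of a member by limma was 0.111. DESeq2 called 7 members, of which Col3a1, Col5a2, Col5a3, Col8a1 and Col12a1 were lower and Col4a3 and Col19a1 higher, against 4.56% lower and 2.13% higher of the 13450 genes it tested. With array weights 8 members were called (5 lower, 3 higher), against 5.06% lower and 2.01% higher of all genes, and without control S591 4 members (3 lower, 1 higher), against 3.29% and 1.41%. At an unadjusted p under 0.05, 13 members were lower and 6 higher, that is 28.9% and 13.3% of the members, against 12.0% lower and 8.04% higher of all genes. All knockout values lay below all control values for 8 members and above them for 7, that is 17.8% and 15.6%, against 14.2% and 11.3% of all genes. The count of 13 lower members changed when 1 library was left out. It was 6 without control S592, control S594 or knockout S598, 5 without knockout S599, and 17 without control S591 or knockout S595. Fits on fewer libraries have less power for any gene, although the count rose to 17 without control S591 or knockout S595. The shares of all genes in these fits are not given here, so the changes cannot be ascribed to the members. The median log2 fold change over all genes was −0.018.

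**Figure D1:**
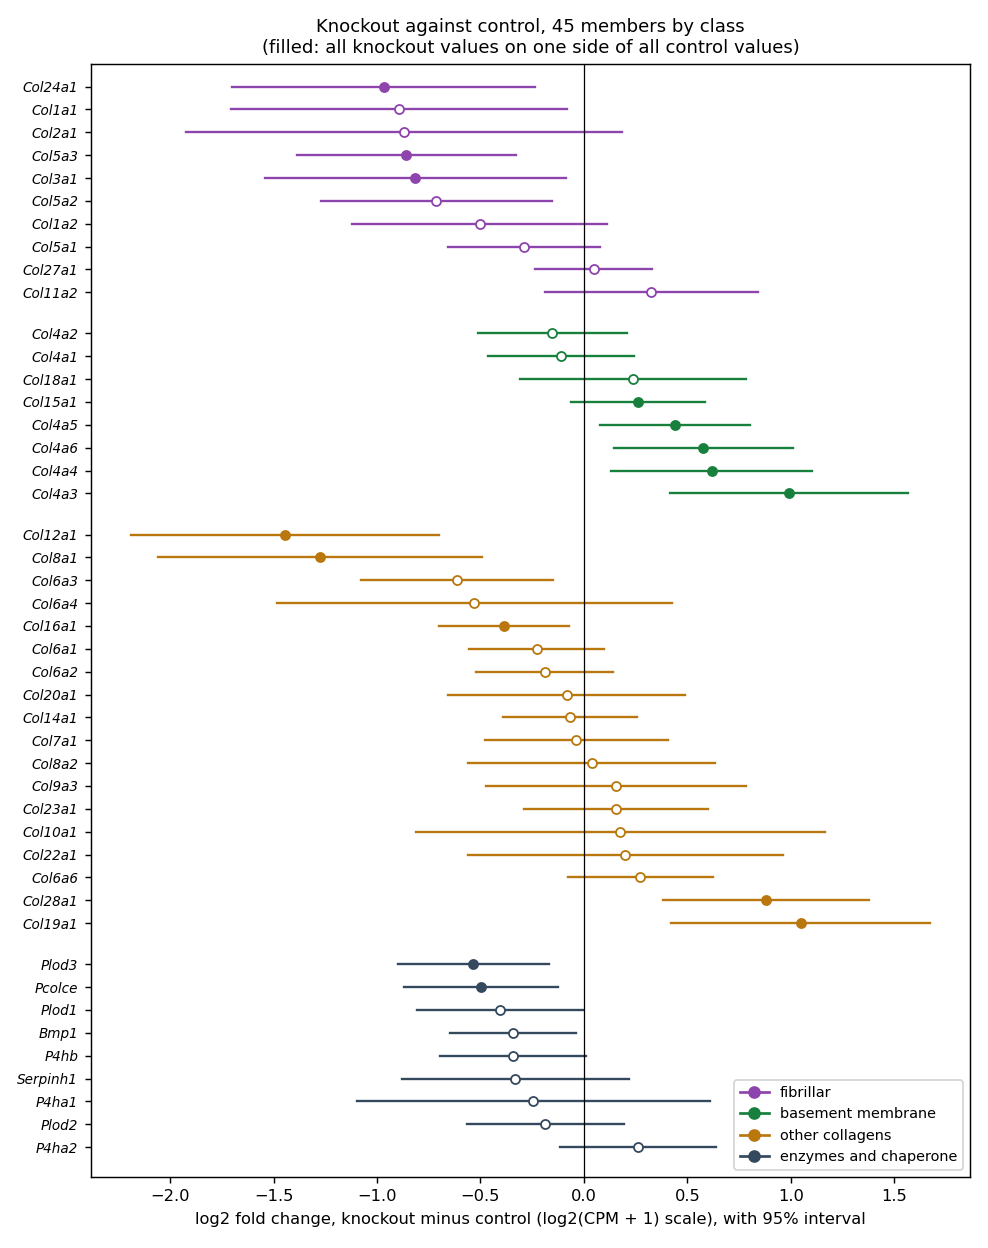
Log2 fold change (knockout minus control, log2(CPM + 1) scale, x axis) of the 45 members with its 95% interval, by class, with filled points where the groups did not overlap. Of 10 fibrillar genes 8 lie below 0, of 8 basement membrane genes 6 lie above 0, the other collagens spread from −1.44 to 1.05, and of 9 processing genes 8 lie below 0.

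The fibrillar collagens, which form the banded fibrils, had 8 negative and 2 positive log2 fold changes, and the median over the 10 genes was −0.76. At an unadjusted p under 0.05, 5 were lower (50%) and 0 higher, against 12.0% and 8.04% of all genes. The groups did not overlap for 3 (Col3a1, Col5a3 and Col24a1), all lower, that is 30%, against 14.2% of all genes. The median was −0.42 with S595 as the single knockout library, which was assumed to vary like the controls. The summed level of the class was 10095, 7105 and 7355 in the knockout arches, against 9600.3, 13999 and 17052 in the control arches (CPM). Knockout S595 thus exceeded control S591 in the sum, while S598 and S599 were below every control.

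Type I collagen is the main fibril protein, built of 2 chains from Col1a1 and 1 from Col1a2. Col1a1 (ENSMUSG00000001506) had 2079, 1229 and 1307 CPM in the knockout arches, against 1798, 2881 and 4132 CPM in the control arches. The groups overlapped, since knockout S595 was above control S591, and the controls spread widely. The log2 fold change was −0.89 (SE 0.35, adjusted p = 0.216), with a 95% interval of −1.71 to −0.080. Col1a2 (ENSMUSG00000029661) had 3007, 2055 and 2206 CPM in the knockout arches, against 2664, 3642 and 4011 CPM in the control arches, again with S595 above S591. Its log2 fold change was −0.50 (SE 0.27, adjusted p = 0.336). The ratio of Col1a1 to Col1a2 within a library was 0.691, 0.598 and 0.592 in the knockout arches, against 0.675, 0.791 and 1.03 in the control arches. It was high in controls S592 and S594, and control S591 lay among the knockout values. This ratio is a description that was not among the planned results, and it carries no test.

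Type III collagen forms fibrils together with type I in distensible tissues, and mutations of its human gene cause the vascular form of Ehlers-Danlos syndrome. Col3a1 (ENSMUSG00000026043) had 3598, 2711 and 2719.5 CPM in the knockout arches, against 3791, 5451 and 6995 CPM in the control arches. Every knockout value was below every control value, although knockout S595 and control S591 were close. The means were 3009.8 ± 509.7 CPM in the knockout and 5412 ± 1602 CPM in the control arches (SD, n = 3 each), which is 1.80 times as much in the control arches, and the log2 fold change was −0.82 (SE 0.31, adjusted p = 0.209). Per kilobase of the longest annotated coding transcript, Col3a1 was the most abundant member in both groups, with 541 CPM per kilobase in the knockout and 973 in the control arches. Col1a2 followed with 453 and 643 CPM per kilobase in the knockout and control arches. In the knockout arches the third level was that of Col1a1 (259), close to Col18a1 (236), a basement membrane gene. In the control arches Col1a1 stood at 495 and Col18a1 at 197 CPM per kilobase.

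Type V collagen is a minor component of type I fibrils that governs how fibrils start and how thick they grow. Col5a2, a neighbour of Col3a1 on chromosome 1, had 737, 516 and 584 CPM in the knockout arches, against 710.4, 1262 and 1093 CPM in the control arches. Knockout S595 was slightly above control S591, so the groups overlapped, and the log2 fold change was −0.71 (SE 0.24, adjusted p = 0.168). Col5a3 had 21.8, 20.4 and 22.6 CPM in the knockout arches, against 35.6, 30.4 and 58.8 CPM in the control arches. The 3 knockout values lay close together and below all controls, with a log2 fold change of −0.86 (SE 0.23, adjusted p = 0.125). Col5a1, the chain found in most type V molecules, had a smaller difference, −0.29 (SE 0.16, adjusted p = 0.354), with overlapping groups. Among the rare fibrillar genes, Col24a1 had 1.29, 0.820 and 0.0786 CPM in the knockout arches, against 1.87, 2.21 and 2.66 CPM in the control arches. These correspond to 8, 8 and 0 reads in the knockout and 10, 16 and 21 reads in the control libraries, and the log2 fold change was −0.97 (SE 0.32, adjusted p = 0.160). With so few reads this value depends on the pseudocount, and it was −1.30 with a pseudocount of 0.5 and −1.93 with one of 0.1.

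Col2a1, the fibrillar collagen of cartilage, had 4.64, 1.49 and 4.95 CPM in the knockout arches, against 8.44, 10.9 and 3.53 CPM in the control arches. The groups overlapped, and the log2 fold change was −0.87 (SE 0.45, adjusted p = 0.332). Of 12 cartilage markers 8 were listed (Matn1, Matn3, Cnmd and Snorc were not), with a median log2 fold change of −0.0090. Their summed level was 307, 229 and 248 in the knockout arches, against 238, 234 and 218 in the control arches (CPM). Acan, the cartilage proteoglycan, had 73.0, 27.3 and 39.1 CPM in the knockout arches, against 30.1, 34.3 and 22.7 CPM in the control arches, and Cytl1 had 113, 136 and 140.2 CPM in the knockout arches, against 123, 103 and 58.4 CPM in the control arches. Neither list nor gene separated the groups. Col11a2 (log2 fold change 0.33) and Col27a1 (0.047) were the fibrillar genes with positive values, with adjusted p of 0.457 and 0.862. For Col27a1 the sign turned without control S592 (−0.00092), control S594 (−0.0023) or knockout S595 (−0.020).

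**Figure D2:**
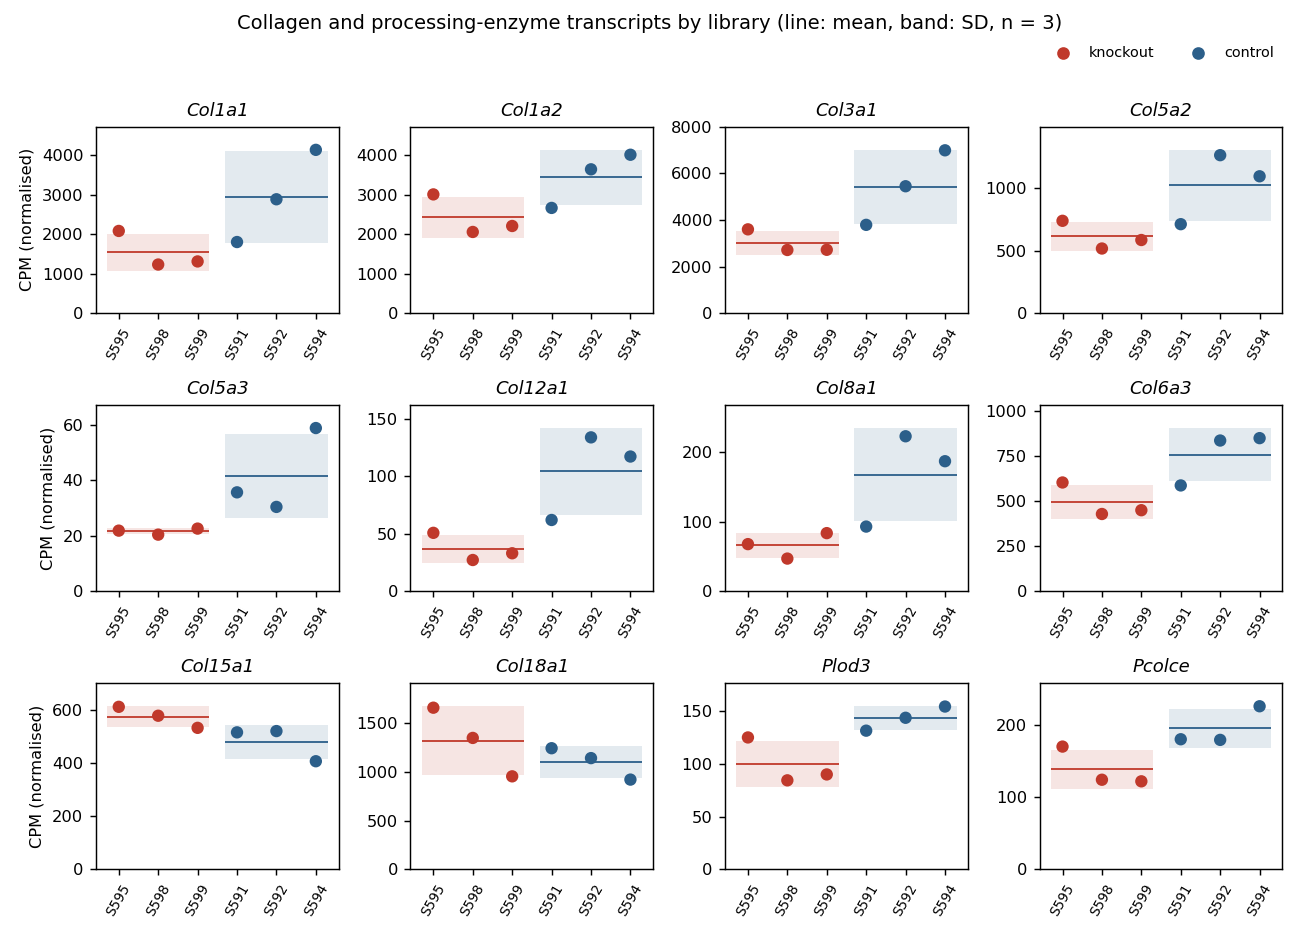
Level (CPM, y axis from 0) of 12 members in each library (x axis), knockout in red and control in blue, with the group mean as a line and the SD as a band (n = 3 each). Col3a1, Col5a3, Col12a1, Col8a1, Plod3 and Pcolce are lower in every knockout library, Col15a1 is higher in every one, and the remaining genes overlap, mostly through knockout S595 and control S591.

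The basement membrane collagens had a positive median log2 fold change, 0.35 over 8 genes, with 6 positive values and 2 negative ones. At an unadjusted p under 0.05, 4 were higher (50%) and 0 lower, against 8.04% and 12.0% of all genes. For 5 of the 8 (62.5%) every knockout value was above every control value, against 11.3% of all genes. The median was 0.21 without control S594. The summed level of the class was 5158, 4515 and 3901 in the knockout arches, against 4362, 4384 and 3589 in the control arches (CPM). This sum overlapped between the groups, and Col18a1, Col4a1 and Col4a2, whose groups overlapped, made up most of it.

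The 6 type IV genes lie in the genome as 3 head-to-head pairs, each transcribed outward from a common stretch: Col4a1 with Col4a2, Col4a3 with Col4a4, and Col4a5 with Col4a6. The chains of Col4a1 and Col4a2 form the network found in all basement membranes. In smooth muscle, chains of Col4a5 and Col4a6 form a second network, and chains of Col4a3, Col4a4 and Col4a5 make up the mature network of the kidney glomerulus. The promoter windows (250 bases before to 50 after the annotated start, 5′ to 3′ on the strand of the gene) are printed from RefSeq on GRCm38.p6, because the pairs stood apart from each other in the arch values. Capitals mark 4 motifs searched on both strands. They are the GC box, GGGCGG, and the CCAAT box. The third is the TATA box, TATAAA. The fourth is the core of the RBPJ motif, TGGGAA. No motif overlapped another in these windows.
Col4a1 (chr8:11312777-11313076, minus strand): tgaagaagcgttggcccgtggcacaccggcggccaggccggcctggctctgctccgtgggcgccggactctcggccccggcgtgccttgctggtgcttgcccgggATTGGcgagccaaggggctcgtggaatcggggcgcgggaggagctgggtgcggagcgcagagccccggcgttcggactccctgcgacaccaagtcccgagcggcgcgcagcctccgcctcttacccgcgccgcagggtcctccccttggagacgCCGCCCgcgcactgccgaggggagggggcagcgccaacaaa
Col4a2 (chr8:11312555-11312854, plus strand): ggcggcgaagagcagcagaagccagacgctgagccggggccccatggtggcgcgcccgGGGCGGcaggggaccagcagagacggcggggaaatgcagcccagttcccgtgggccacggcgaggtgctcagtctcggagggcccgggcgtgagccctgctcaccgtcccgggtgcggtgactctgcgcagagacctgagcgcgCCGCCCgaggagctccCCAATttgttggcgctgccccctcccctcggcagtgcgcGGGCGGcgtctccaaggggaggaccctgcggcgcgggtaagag
Col4a4 (chr1:82586800-82587099, minus strand): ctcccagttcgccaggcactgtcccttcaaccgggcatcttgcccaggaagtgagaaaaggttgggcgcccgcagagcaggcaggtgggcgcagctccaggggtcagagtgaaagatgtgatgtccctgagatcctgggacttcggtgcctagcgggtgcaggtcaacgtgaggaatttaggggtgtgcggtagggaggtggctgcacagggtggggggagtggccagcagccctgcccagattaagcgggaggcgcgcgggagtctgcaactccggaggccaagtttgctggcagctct
Col4a5 (chrX:141475169-141475468, plus strand): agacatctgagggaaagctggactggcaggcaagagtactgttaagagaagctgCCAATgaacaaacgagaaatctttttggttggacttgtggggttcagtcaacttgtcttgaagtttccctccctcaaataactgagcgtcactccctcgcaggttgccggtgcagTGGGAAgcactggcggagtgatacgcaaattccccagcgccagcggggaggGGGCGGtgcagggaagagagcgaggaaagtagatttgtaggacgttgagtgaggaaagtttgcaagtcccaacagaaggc
Col4a6 (chrX:141474027-141474326, minus strand): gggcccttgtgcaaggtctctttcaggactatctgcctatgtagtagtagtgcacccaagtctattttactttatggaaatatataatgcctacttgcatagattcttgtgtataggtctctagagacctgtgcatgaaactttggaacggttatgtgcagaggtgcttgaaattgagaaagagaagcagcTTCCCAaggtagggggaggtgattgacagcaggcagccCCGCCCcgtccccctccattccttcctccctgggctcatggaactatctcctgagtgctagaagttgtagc

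The Col4a1 and Col4a2 windows share 78 bases. Their annotated starts in that table lie 21 bases apart with the transcribed parts overlapping, so reads there could belong to either gene if strand was not used in counting. The Col4a5 and Col4a6 starts lie 1343 bases apart. No window was available for Col4a3, so its pair is represented by Col4a4 alone. GGGCGG was present in the windows of Col4a1, Col4a2, Col4a5 and Col4a6 and not in that of Col4a4, and 35.7% of all 32851 promoter windows hold it. CCAAT was found in the windows of Col4a1, Col4a2 and Col4a5 (37.4% of all windows), and TATAAA in none of the 5 (13.6% of all windows). TGGGAA occurred once each in the windows of Col4a5 and Col4a6, and 25.6% of all windows hold it. Of the 45 members, 35 have an entry in this table, and 11 of their 37 windows hold TGGGAA. These matches describe letters only.

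The common pair did not differ detectably. Col4a1 (ENSMUSG00000031502) had 1177, 989 and 961 CPM in the knockout arches, against 1110.05, 1211 and 1046 CPM in the control arches, and its log2 fold change was −0.11 (SE 0.15, adjusted p = 0.732) with a 95% interval of −0.46 to 0.24. Col4a2 (ENSMUSG00000031503) had 845, 679.6 and 614 CPM in the knockout arches, against 771, 843 and 748 CPM in the control arches, and its log2 fold change was −0.15 (SE 0.15, adjusted p = 0.625) with an interval of −0.51 to 0.21. Both genes were highest in knockout S595 and control S592, and both signs turned with S595 as the single knockout library (0.072 for Col4a1 and 0.10 for Col4a2). The ratio of Col4a1 to Col4a2 within a library was 1.39, 1.46 and 1.56 in the knockout arches, against 1.44, 1.44 and 1.40 in the control arches.

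The pair on the X chromosome was higher in every knockout library. Col4a5 (ENSMUSG00000031274) had 444, 469 and 432 CPM in the knockout arches, against 379, 363 and 261 CPM in the control arches. Col4a6 (ENSMUSG00000031273) had 365, 387 and 343 CPM in the knockout arches, against 298, 268 and 181 CPM in the control arches. Control S594 was the lowest for both, and the lowest knockout library was S599 for both. The log2 fold changes were 0.44 (SE 0.16, adjusted p = 0.183) for Col4a5 and 0.58 (SE 0.19, adjusted p = 0.158) for Col4a6. Without control S594 they were 0.27 for Col4a5 and 0.36 for Col4a6. Set against the common network, the ratio of Col4a5 to Col4a1 within a library was 0.377, 0.474 and 0.449 in the knockout arches, against 0.341, 0.299 and 0.250 in the control arches. This ratio, chosen after its values were seen and given as a description, did not overlap between the groups.

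The third pair was the least abundant of the type IV genes. Col4a3 (ENSMUSG00000079465) had 30.4, 29.9 and 28.5 CPM in the knockout arches, against 19.8, 16.2 and 9.23 CPM in the control arches, with means of 29.6 ± 0.948 CPM in the knockout and 15.1 ± 5.38 CPM in the control arches (SD, n = 3 each). Its log2 fold change of 0.99 (SE 0.25, adjusted p = 0.121) was the largest of the class. Col4a4 (ENSMUSG00000067158) had 26.2, 33.4 and 34.7 CPM in the knockout arches, against 25.5, 21.1 and 14.8 CPM in the control arches, where knockout S595 was only just above control S591. Its log2 fold change was 0.62 (SE 0.21, adjusted p = 0.168). Per kilobase, Col4a3 stood at 3.46 and 1.76 CPM in the knockout and control arches, against 68.6 and 51.1 for Col4a5 and 158 and 169.7 for Col4a1.

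**Figure D3:**
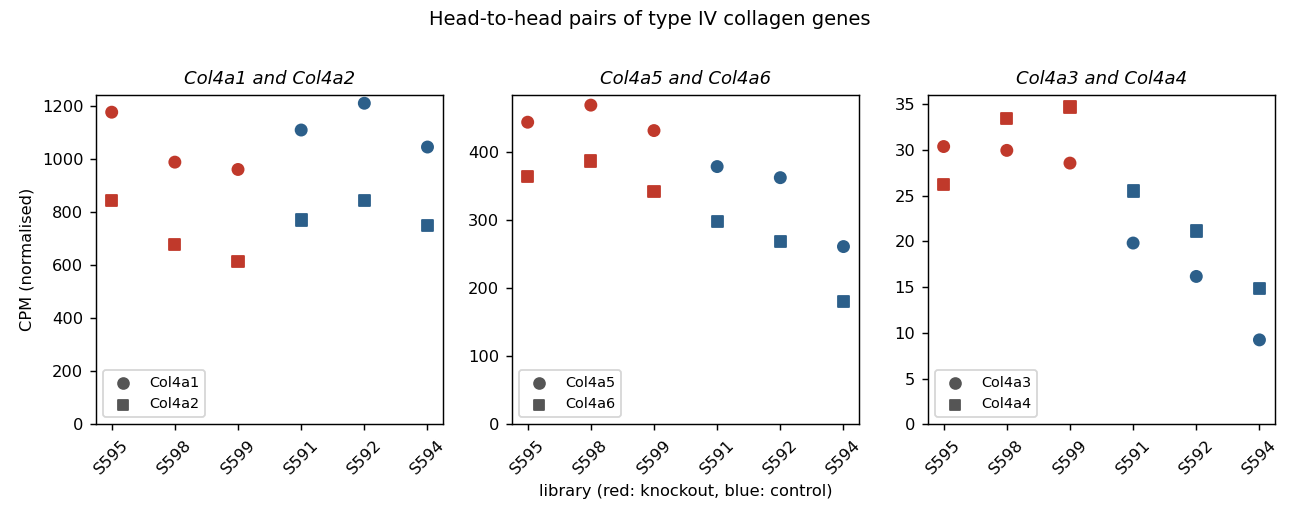
Level (CPM, y axes from 0 and on different scales) of the head-to-head pairs of type IV collagen genes in each library (x axis), knockout in red and control in blue. Circles and squares stand for the genes of a pair. Knockout and control values overlap for Col4a1 and Col4a2 and are apart for the other pairs.

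Types XV and XVIII are the multiplexins, basement membrane proteoglycans whose ends can be cleaved to fragments such as endostatin. Col15a1 had 611, 578 and 532 CPM in the knockout arches, against 515, 520.2 and 407 CPM in the control arches. The groups did not overlap, but the lowest knockout value was close to the highest control value, and the log2 fold change was 0.26 (SE 0.14, adjusted p = 0.339). Col18a1, the source of endostatin, had 1659, 1349 and 955 CPM in the knockout arches, against 1243, 1142 and 922 CPM in the control arches. Its groups overlapped, with knockout S599 near control S594, and the log2 fold change was 0.24 (SE 0.23, adjusted p = 0.620).

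As list means, smooth muscle markers varied with the basement membrane genes across libraries. Their mean log2 level about the mean of the 6 libraries was 0.50, 0.51 and −0.036 in the knockout arches, against 0.030, −0.20 and −0.80 in the control arches, and that of the basement membrane collagens was 0.26, 0.21 and 0.067 in the knockout arches, against 0.010, −0.066 and −0.48 in the control arches. Both lists were lowest in control S594 and highest in knockout S595 or S598. Single genes did not all follow their list. Of the 8 basement membrane genes 6 had positive log2 fold changes, while Col4a1 (−0.11) and Col4a2 (−0.15) were negative and lowest in knockout S599. The log2 fold change was positive for all 10 smooth muscle markers (median 0.63). For 5 (50%) the unadjusted p was under 0.05, against 8.04% of all genes on the higher side. The smallest adjusted p of a smooth muscle marker by limma was 0.147. Lmod1, a leiomodin of the contractile filaments, had 594, 710.3 and 637 CPM in the knockout arches, against 543, 394 and 309.6 CPM in the control arches, and the actin gene Actg2 had 324, 344 and 231 CPM in the knockout arches, against 235, 190.4 and 191 CPM in the control arches. In whole-arch RNA more cells of a type and more RNA per cell cannot be told apart, and the part of smooth muscle content in the type IV values was not tested.

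The 18 other collagens spread in both directions, with a median log2 fold change of −0.052 and 10 negative and 8 positive values. At an unadjusted p under 0.05, 4 were lower (22.2%) and 2 higher (11.1%), against 12.0% and 8.04% of all genes. The lower ones were Col12a1, Col8a1, Col6a3 and Col16a1, and the higher ones, both at low levels, were Col19a1 and Col28a1.

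Col12a1 and Col8a1 had the largest log2 fold changes in size of all members on the log2(CPM + 1) scale. By the ratio of group means the rare genes Col24a1 (3.08 times as much in the control arches) and Col19a1 (2.98 times as much in the knockout arches) stood further apart, and with a pseudocount of 0.1 their log2 fold changes, −1.93 for Col24a1 and 1.49 for Col19a1, passed the −1.47 of Col12a1 and the −1.29 of Col8a1 in size. Col12a1 encodes a fibril-associated collagen that binds to the surface of type I fibrils. It had 50.9, 27.2 and 33.1 CPM in the knockout arches, against 62.1, 134 and 117 CPM in the control arches. All knockout values were lower, and the means were 37.1 ± 12.3 CPM in the knockout and 105 ± 37.7 CPM in the control arches (SD, n = 3 each). This is 2.82 times as much in the control arches, with a log2 fold change of −1.44 (SE 0.32, adjusted p = 0.111) and a 95% interval of −2.19 to −0.70. Col8a1 encodes a short-chain collagen that vascular cells make in the injured wall. It had 67.8, 47.0 and 83.6 CPM in the knockout arches, against 93.0, 223 and 187 CPM in the control arches. The groups did not overlap, with knockout S599 close to control S591, and the log2 fold change was −1.27 (SE 0.34, adjusted p = 0.125). Its partner chain Col8a2 was rare, with 2.82, 2.84 and 1.34 CPM in the knockout arches, against 2.40, 1.94 and 2.17 CPM in the control arches, and its log2 fold change was 0.038 (SE 0.26, adjusted p = 0.949). Its sign turned without control S592 (−0.015), knockout S595 (−0.079) or knockout S598 (−0.084).

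Type VI collagen forms beaded microfilaments around cells, from chains of Col6a1, Col6a2 and Col6a3. Col6a3 had 605, 429.6 and 451 CPM in the knockout arches, against 588, 838 and 851 CPM in the control arches, with knockout S595 above control S591 and a log2 fold change of −0.61 (SE 0.20, adjusted p = 0.159). Col6a1 had 662, 549 and 537 CPM in the knockout arches, against 613, 737 and 694 CPM in the control arches, a log2 fold change of −0.23 (SE 0.14, adjusted p = 0.404). Col6a2, its neighbour on chromosome 10, had 606, 475 and 456 CPM in the knockout arches, against 552, 617 and 572 CPM in the control arches, a log2 fold change of −0.19 (SE 0.14, adjusted p = 0.502). Within a library the ratio of Col6a1 to Col6a2 was 1.09, 1.15 and 1.18 in the knockout arches, against 1.11, 1.20 and 1.21 in the control arches. The ratio of Col6a3 to Col6a1 was 0.913, 0.783 and 0.840 in the knockout arches, against 0.959, 1.14 and 1.23 in the control arches. The knockout values of the Col6a3 ratio were all below the control values, while those of the neighbouring pair overlapped. Both ratios are descriptions that were not among the planned results, and they carry no test.

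Among the fibril-associated collagens, Col16a1 had 55.3, 50.5 and 43.0 CPM in the knockout arches, against 58.2, 74.2 and 62.9 CPM in the control arches. Its groups did not overlap and its log2 fold change was −0.39 (SE 0.14, adjusted p = 0.180). Col14a1, which binds fibrils like Col12a1, was abundant and did not differ detectably, at 586, 507 and 649 CPM in the knockout arches, against 559, 598.5 and 663 CPM in the control arches. Its log2 fold change was −0.068 (SE 0.14, adjusted p = 0.822), with a 95% interval of −0.39 to 0.26, and its sign turned without knockout S598 (0.026). Col19a1, a collagen of basement membrane zones, had 4.95, 3.81 and 2.44 CPM in the knockout arches, against 1.69, 1.14 and 0.929 CPM in the control arches. Col28a1, best known from the basement membranes of peripheral nerve, had 2.97, 4.29 and 3.70 CPM in the knockout arches, against 1.87, 1.27 and 1.42 CPM in the control arches. Both were higher in every knockout library, with log2 fold changes of 1.05 (SE 0.27, adjusted p = 0.121) and 0.88 (SE 0.21, adjusted p = 0.121). The Schwann cell and nerve markers, 6 of 10 listed, gave a median log2 fold change of 0.052, with 2 below 0 and 4 above 0. Mbp, a myelin protein gene and 1 of the 2 below 0, had 14.7, 14.2 and 19.1 CPM in the knockout arches, against 25.0, 20.2 and 24.2 CPM in the control arches.

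The remaining 9 genes of this class (Col6a4, Col6a6, Col7a1, Col8a2, Col9a3, Col10a1, Col20a1, Col22a1 and Col23a1) had log2 fold changes from −0.53 for Col6a4 to 0.27 for Col6a6 and overlapping groups. Of all members, 11 stayed under 10 CPM in every library, so counting error weighs on them. Col6a4 passed 1 CPM in 3 libraries only, and 39 of the 45 members passed it in all 6.

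Of the 9 processing genes 8 had negative log2 fold changes, with a median of −0.34. At an unadjusted p under 0.05, 4 (44.4%) were lower (Plod3, Pcolce, Bmp1 and Plod1) and 0 higher, against 12.0% and 8.04% of all genes. The groups did not overlap for Plod3 and Pcolce, both lower, that is 22.2%, against 14.2% of all genes. The median was −0.56 without knockout S595 and −0.090 with S595 as the single knockout library. The summed level was 2300.3, 1562 and 1538 in the knockout arches, against 1971, 2307 and 2388 in the control arches (CPM), so S595 lay among the controls and S598 and S599 lay below them.

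The lysyl hydroxylases modify lysines for cross-links and sugar attachment. Plod3, which also transfers glucose, had 125, 84.6 and 90.2 CPM in the knockout arches, against 132, 144 and 155 CPM in the control arches, a log2 fold change of −0.53 (SE 0.16, adjusted p = 0.139). Plod1, which acts on helical lysines, had 98.1, 60.9 and 81.6 CPM in the knockout arches, against 94.4, 111 and 109 CPM in the control arches, a log2 fold change of −0.40 (SE 0.17, adjusted p = 0.248), which was −0.22 without knockout S598. Plod2, which acts on the telopeptides, had 172, 141 and 123 CPM in the knockout arches, against 143, 197 and 156 CPM in the control arches, a log2 fold change of −0.19 (SE 0.16, adjusted p = 0.570). The 3 genes thus lay on the same side, with groups apart for Plod3 alone among them.

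Prolyl 4-hydroxylase stabilises the triple helix and is made of a catalytic subunit, from P4ha1 or P4ha2, and protein disulphide isomerase, from P4hb. P4hb had 566, 435 and 455 CPM in the knockout arches, against 540.1, 616 and 689.9 CPM in the control arches, a log2 fold change of −0.34 (SE 0.15, adjusted p = 0.262). P4ha1 had 189.7, 67.9 and 77.0 CPM in the knockout arches, against 104, 150.4 and 106 CPM in the control arches. Knockout S595 was the highest of all libraries and S598 and S599 the lowest, and the log2 fold change was −0.24 (SE 0.37, adjusted p = 0.753). It was 0.030 without knockout S598 and 0.68 with S595 as the single knockout library. P4ha2 was the processing gene with a positive value, 0.26 (SE 0.16, adjusted p = 0.409), from 92.3, 71.3 and 60.3 CPM in the knockout arches, against 59.4, 67.9 and 56.8 CPM in the control arches.

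The chaperone gene Serpinh1, which encodes HSP47, had 700.2, 425 and 368 CPM in the knockout arches, against 537, 621 and 656 CPM in the control arches. S595 was again the highest and S598 and S599 the lowest, and the log2 fold change was −0.33 (SE 0.24, adjusted p = 0.479), turning to 0.22 with S595 as the single knockout library. Bmp1, the protease that cuts the C-propeptides of fibrillar procollagens, had 187, 153 and 160.04 CPM in the knockout arches, against 182, 221 and 235 CPM in the control arches, a log2 fold change of −0.34 (SE 0.13, adjusted p = 0.206). Pcolce, which speeds that cleavage, had 169.6, 124 and 122 CPM in the knockout arches, against 179.7, 179 and 225 CPM in the control arches, and all knockout values were lower, with a log2 fold change of −0.50 (SE 0.16, adjusted p = 0.158).

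Of 26 further genes of collagen maturation and cross-linking 25 were listed, of which 20 lay below 0 and 5 above 0 in log2 fold change (median −0.17). The smallest adjusted p by limma was 0.146. At an unadjusted p under 0.05 there were 6 (24%) lower and 0 higher, against 12.0% and 8.04% of all genes. Lox, whose product cross-links collagen and elastin, had 289.8, 270.4 and 273 CPM in the knockout arches, against 337, 649 and 442 CPM in the control arches, with every knockout value lower and a log2 fold change of −0.72 (SE 0.22, adjusted p = 0.146). The collagen galactosyltransferase gene Colgalt1 had 175, 155 and 171 CPM in the knockout arches, against 192, 219 and 227 CPM in the control arches, a log2 fold change of −0.35 (SE 0.11, adjusted p = 0.147).

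Of 11 proteases that cut collagen, all listed, 8 lay below 0 in log2 fold change and 3 above 0 (Mmp9, Mmp15 and Mmp16), and the median was −0.92. The smallest adjusted p by limma was 0.107. At an unadjusted p under 0.05, 7 (63.6%) were on the lower side and 0 on the higher side, against 12.0% and 8.04% of all genes. Mmp13, an interstitial collagenase, had 7.23, 2.75 and 2.60 CPM in the knockout arches, against 13.4, 58.7 and 25.0 CPM in the control arches, a log2 fold change of −2.55 (SE 0.53, adjusted p = 0.107). Ctsk, the collagen-degrading cathepsin of osteoclasts and macrophages, had 76.8, 38.1 and 56.9 CPM in the knockout arches, against 91.9, 140.1 and 129 CPM in the control arches, a log2 fold change of −1.09 (SE 0.26, adjusted p = 0.120). Both were lower in every knockout library. Receptors of collagen went both ways, with 4 of 9 below 0 and 5 above 0 in log2 fold change and a median of 0.23. At an unadjusted p under 0.05, 3 were lower (33.3%) and 2 higher (22.2%), against 12.0% and 8.04% of all genes. Every knockout value was lower for 2 (22.2%) and higher for 4 (44.4%), against 14.2% and 11.3% of all genes. The 2 of smallest p both had negative log2 fold changes. The inhibitory receptor gene Lair1 of leukocytes had 17.3, 11.3 and 28.7 CPM in the knockout arches, against 29.1, 41.6 and 35.6 CPM in the control arches (−0.94 (SE 0.30, adjusted p = 0.159)), and the uptake receptor gene Mrc2 had 127, 99.6 and 93.8 CPM in the knockout arches, against 119.8, 157 and 165 CPM in the control arches (−0.45 (SE 0.16, adjusted p = 0.186)).

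**Figure D4:**
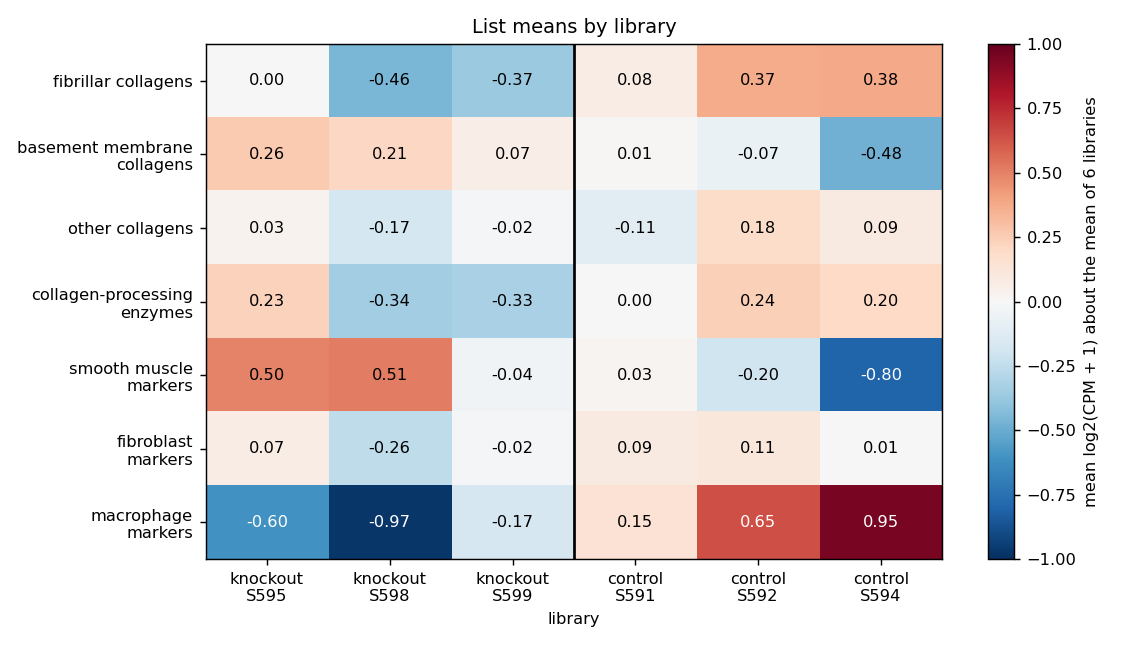
Mean log2(CPM + 1) of each list about the mean of the 6 libraries (colour and number), for collagen classes and cell type markers (rows) in each library (columns, knockout left of control). The fibrillar collagens and the macrophage markers are lowest in knockout S598 and highest in control S594, and the basement membrane collagens and the smooth muscle markers are lowest in control S594.

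Marker levels of other cell types are set beside the fibrillar class here. The mean log2 level of the fibrillar collagens about the mean of all libraries was 0.0035, −0.46 and −0.37 in the knockout arches, against 0.075, 0.37 and 0.38 in the control arches. That of 12 macrophage markers was −0.60, −0.97 and −0.17 in the knockout arches, against 0.15, 0.65 and 0.95 in the control arches. All 12 (100%) were lower at an unadjusted p under 0.05, against 12.0% of all genes, with a median log2 fold change of −1.10. By limma 0 of the 12 had an adjusted p under 0.05, and the smallest was 0.107. Itgam, an integrin chain of myeloid cells, had 52.0, 44.0 and 53.4 CPM in the knockout arches, against 94.97, 159 and 221 CPM in the control arches, and the adaptor gene Tyrobp had 76.2, 53.7 and 95.4 CPM in the knockout arches, against 132, 172 and 177 CPM in the control arches. For 12 fibroblast markers the level was 0.071, −0.26 and −0.021 in the knockout arches, against 0.089, 0.11 and 0.0056 in the control arches, with a median log2 fold change of −0.061. The unadjusted p was under 0.05 for 2 (16.7%) on the lower and 1 (8.33%) on the higher side, against 12.0% and 8.04% of all genes. The smallest adjusted p of a fibroblast marker by limma was 0.112. Lum, a proteoglycan that binds collagen fibrils, had 682, 427 and 694 CPM in the knockout arches, against 1021, 2305 and 1707 CPM in the control arches, and the microfibril gene Mfap5 had 219, 192 and 177 CPM in the knockout arches, against 160.2, 163 and 151 CPM in the control arches. By this mean log2 level the macrophage list did not overlap between the groups, the fibroblast list did, and the smooth muscle list overlapped through knockout S599 and control S591. By summed CPM each of these statements turned. The macrophage sum was 3077, 2445 and 5656 in the knockout arches, against 5620.5, 7498 and 9410.2 in the control arches, where knockout S599 was just above control S591. The fibroblast sum was 6534, 5394 and 6571 in the knockout arches, against 6969, 8254 and 7092 in the control arches, lower in every knockout library. The smooth muscle sum was 30235, 29865 and 21936 in the knockout arches, against 21771, 18324 and 12472 in the control arches, higher in every knockout library, with S599 and S591 close. Their part in the collagen values was not tested.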

How the data were processed

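Gene expression was measured in 6 libraries of mouse aortic arch, 3 per group, by polyA RNA sequencing after TruSeq library preparation of RNA with an integrity score of at least 7.9, per the labels' protocols. The submitters' processing notes name CASAVA 1.8, cutadapt 1.6.1, RSEM 1.16, Bowtie 0.12.7, limma, edgeR and the mouse build NCBIM37, with no role or order. The sources used here give no annotation, strand setting or gene filter. Values were deposited by the authors as a normalised signal that never reaches 0. Each was checked to equal reads plus 0.5, as CPM after TMM scaling, and whole reads were recovered from 100% of values at a tolerance of 0.01. Column names give the group and a number that is no sample title, and libraries go by that number. Every listed gene had at least 1 CPM in at least 3 libraries.

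Symbols were matched by Ensembl identifier to GENCODE vM21 (13828 of 14298), an annotation of another build than the submitters'. Its longest coding transcript gave the lengths. Groups were compared by limma 3.58.1 (R 4.3.3) on log2(CPM + 1) with an intensity trend, over all 14298 genes, with Benjamini-Hochberg adjustment. The procedure was also run on simulated counts with the same dispersion for every gene and no differences between libraries beyond depth. This does not show how it performs on libraries that vary as these do. The members, classes, lists and tests were chosen with earlier results of these data known. Values per library are given for the 6 members of each class with the smallest p, a set of main collagens, all processing genes and the 2 genes of smallest p in each further or marker list that is described, except 1 gene of the nerve list that is not reported here. Any other gene was chosen after its values were seen. The marker lists of adipocytes and of skeletal and heart muscle overlapped between the groups and are given in the closing section. Alternatives were other pseudocounts, filters and scalings, array weights, each library left out, edgeR 4.0.16, DESeq2 1.42.0 and limma-voom on the recovered reads.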

Additional observations from a re-analysis of the deposited data

How the results depend on the processing

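No paired analysis was possible because the columns carry no replicate number that ties a library to a sample title. The count of genes called over the whole table, 3 by limma, was 0 with a pseudocount of 0.5 or 0.1, 0 with at least 5 CPM required in at least 3 libraries, 1 without the intensity trend, 1011 with array weights, 900 by DESeq2, and 0 by edgeR, by limma-voom and with S595 as the single knockout library. It ran from 0 to 671 with 1 library left out. Of the members, 0 were called in the fit reported, 8 with array weights and 7 by DESeq2. With 1 library left out the number ran from 0 to 4, the 4 being Col12a1, Col8a1, Col4a3 and Col5a2 without control S591. The cause was not tested. At an unadjusted p under 0.05, between 5 and 17 members were lower and between 4 and 6 higher with 1 library left out. These fits had fewer samples, and their shares of all genes are not given here.

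The median log2 fold change ran from −0.86 to −0.53 for fibrillar collagens, from 0.21 to 0.46 for basement membrane collagens, from −0.097 to −0.039 for the other collagens and from −0.56 to −0.25 for processing genes with 1 library left out. With S595 alone it was −0.42 for fibrillar collagens and −0.090 for processing genes, and with at least 5 CPM required it was −0.21 for the other collagens, where fewer genes were tested. Of the 45 members, 30 kept their sign under all 18 alternatives that gave them a value. Dropping the intensity trend or changing the filter leaves a log2 fold change as it was, so those alternatives could not turn a sign. Leaving out 1 library turned the sign of some members, whose log2 fold changes then ranged as follows. They ran from −0.19 to 0.55 for Col10a1 (without control S594 or knockout S599), −0.15 to 0.026 for Col14a1 (without knockout S598) and −0.24 to 0.10 for Col20a1 (without control S591 or knockout S599). Others ran from −0.15 to 0.46 for Col22a1 (without control S591), −0.0098 to 0.30 for Col23a1 (without knockout S599) and −0.020 to 0.14 for Col27a1 (without control S592 or control S594 or knockout S595). Others ran from −0.11 to 0.014 for Col7a1 (without control S591 or knockout S595), −0.084 to 0.28 for Col8a2 (without control S592 or knockout S595 or knockout S598) and −0.023 to 0.38 for Col9a3 (without knockout S595). Others ran from −0.70 to 0.030 for P4ha1 (without knockout S598). After quantile normalisation the sign turned for Col7a1 (0.014), with array weights for Col22a1 (−0.017), Col10a1 (−0.21) and Col7a1 (0.040), and with S595 as the single knockout library for Serpinh1 (0.22), Col6a2 (0.063), Plod2 (0.069), Col4a2 (0.10), Col23a1 (−0.14), Col4a1 (0.072), P4ha1 (0.68) and Col20a1 (0.094). The causes were not tested. Genes of a few CPM rest on few reads, down to 0 reads for Col24a1 in knockout S599.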

Other observations

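Adipocyte markers, all 10 of 10 listed, varied between libraries without following the groups. Their summed level was 1914, 1212 and 1393 in the knockout arches, against 3547, 912 and 1978 in the control arches (CPM), highest in control S591, and the median log2 fold change was −0.21. Lep, the leptin gene, had 8.90, 18.9 and 24.8 CPM in the knockout arches, against 13.4, 1.14 and 0.929 CPM in the control arches, and Cfd, the adipsin gene, had 259.99, 101 and 80.0 CPM in the knockout arches, against 184, 126 and 326 CPM in the control arches. Skeletal and heart muscle markers, 5 of 10 listed, were rare, with a summed level of 43.3, 30.7 and 20.4 in the knockout arches, against 69.4, 14.4 and 11.8 in the control arches (CPM). Tnnt2, the heart troponin T gene, had 13.3, 23.3 and 12.8 CPM in the knockout arches, against 24.8, 9.19 and 2.66 CPM in the control arches, and Mb, the myoglobin gene, had 1.75, 0.434 and 1.02 CPM in the knockout arches, against 5.60, 0.201 and 1.05 CPM in the control arches. Of the 12 endothelial markers, 7 lay below 0 and 5 above 0 in log2 fold change, with a median of −0.053. By limma 0 of them had an unadjusted p under 0.05, against 12.0% lower and 8.04% higher of all genes. The 2 of smallest p were Tie1 and Vwf, with overlapping groups for both. Tie1 had 62.2, 57.1 and 90.2 CPM in the knockout arches, against 74.5, 90.6 and 97.7 CPM in the control arches. Vwf had 252, 189 and 330.4 CPM in the knockout arches, against 295, 369.8 and 317 CPM in the control arches.

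The collagen genes together took 1.76, 1.42 and 1.40 in the knockout arches, against 1.58, 2.13 and 2.45 in the control arches (percent of the reads in listed genes). Knockout S595 lay between control S591 and control S592, and S598 and S599 lay below every control. The ratio of Col5a1 to Col5a2, both chains of type V collagen, was 0.781, 0.992 and 0.772 in the knockout arches, against 0.735, 0.526 and 0.641 in the control arches, higher in every knockout library. That of Col4a3 to Col4a4 was 1.16, 0.896 and 0.823 in the knockout arches, against 0.777, 0.765 and 0.623 in the control arches, also higher in every knockout library, while that of Col4a5 to Col4a6 was 1.22, 1.21 and 1.26 in the knockout arches, against 1.27, 1.35 and 1.44 in the control arches, lower in every knockout library. These ratios were chosen after their values were seen and carry no test.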
